A study of Mus musculus with 9 samples.

Results

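Interferon-stimulated genes are the genes that cells switch on when they meet interferon, and the 39 of them described here were taken as a list of gene symbols and found on the array by the gene name that the scanner files give each probe. Of the 39 listed genes, 38 had at least 1 probe, 59 probes in all out of 41174 probes on the array, and Dtx3l had none. To be tested, a gene needed a probe that the scanner software marked as well above background throughout 1 of the 3 groups, which held for 31 of the 39 genes and for 12048 genes on the whole array. The brightest such probe by its mean stands for its gene, and every value below is the log2 of the processed signal relative to the 75th percentile of its array, so that 0 is the signal at that percentile. Levels of different probes are not compared with each other.

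All 9 arrays hold total RNA of pro-B cells from the C57Bl/6 strain that were transformed by the Abelson virus (A-MuLV) and carry Ebf1fl/fl and RERTCre, a floxed Ebf1 gene with a Cre recombinase that 4-hydroxytamoxifen (4-OHT) activates. EBF1 is the early B cell factor, a transcription factor needed for B cell identity. The 3 EBF1ΔC arrays are from cells given a pmys retrovirus that encodes EBF1ΔC, which by its name lacks the C-terminal part, followed by IRES-GFP, and the 3 EBF1wt arrays are from cells given the same vector with wild-type EBF1. Both of these groups received the virus 24 h before 2 µM 4-OHT, were sorted by their GFP 5 days after it, and were used when more than 2 further weeks had passed. The 3 Mock arrays are from mock-transduced cells, also exposed to 2 µM 4-OHT but harvested 4 days later, so that they differ from both EBF1 groups in virus, sorting and time as well as in EBF1. The labels do not say whether the replicates were separate cultures, and the p-values then measure only the spread between these samples. For EBF1wt replicate 3, tamoxifen is absent from the source name but present in other labels.

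Type I interferon binds its receptor and, through the kinases JAK1 and TYK2, activates STAT2, which with IRF9 is part of the complex ISGF3, and this complex binds a short DNA motif, the interferon-stimulated response element (ISRE), in front of its target genes. The products of these genes sense viral nucleic acid, block steps of viral growth, and in part feed back on the pathway: IRF7 raises interferon production, and USP18 damps signalling at the receptor. A low level of the same genes is kept up in many resting cells without infection.

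The sequence in front of the genes is shown for 4 members, because it places the ISRE in genes whose signal is described further on. Matches to GAAANNGAA, a core of the ISRE, were searched on both strands in the 250 bases before the start of each RefSeq promoter entry (GRCm38.p6), and matches may overlap. At least 1 match was in 12 of the 37 entries of 30 matched members, a share of 32.4%, and in 7.13% of all 32851 promoter entries. No promoter entry was matched for Usp18, Oas2, Dhx58, Mx1, Mx2, Zbp1, Parp14, Parp9 and Rtp4, which were therefore not searched. Of the searched members that were called in a comparison, Oas3, Stat2 and Bst2 had a match; Isg15 was added after its values were seen, for the run of 3 overlapping matches. Bases of the matches are in capitals, written 5′ to 3′ along the gene's strand, and each window ends with the base before the start.
Oas3: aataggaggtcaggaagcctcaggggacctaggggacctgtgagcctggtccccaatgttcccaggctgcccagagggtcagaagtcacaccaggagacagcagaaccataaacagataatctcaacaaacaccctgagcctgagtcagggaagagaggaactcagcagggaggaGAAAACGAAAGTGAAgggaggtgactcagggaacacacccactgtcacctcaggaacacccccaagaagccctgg
Stat2: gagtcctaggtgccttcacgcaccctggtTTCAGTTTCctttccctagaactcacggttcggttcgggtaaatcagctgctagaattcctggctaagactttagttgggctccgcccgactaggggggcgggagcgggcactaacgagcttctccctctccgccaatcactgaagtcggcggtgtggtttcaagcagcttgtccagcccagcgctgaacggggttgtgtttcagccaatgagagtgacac
Bst2: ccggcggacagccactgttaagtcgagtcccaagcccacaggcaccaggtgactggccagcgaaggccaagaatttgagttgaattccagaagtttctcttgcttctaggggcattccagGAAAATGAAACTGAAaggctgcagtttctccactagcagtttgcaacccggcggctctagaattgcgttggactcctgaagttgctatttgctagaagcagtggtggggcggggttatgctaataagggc
Isg15: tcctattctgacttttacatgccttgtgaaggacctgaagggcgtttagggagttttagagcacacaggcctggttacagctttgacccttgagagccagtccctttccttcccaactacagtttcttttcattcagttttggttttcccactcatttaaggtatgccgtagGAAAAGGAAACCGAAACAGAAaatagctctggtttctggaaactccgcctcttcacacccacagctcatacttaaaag
The Oas3 window (chr5:120777660-120777909, minus strand) holds 2 overlapping matches at bases −75 to −61 relative to the start. In the Stat2 window (chr10:128270248-128270497, plus strand) the 1 match lies on the other strand, at bases −221 to −213. The Bst2 window (chr8:71537473-71537722, minus strand) holds 2 overlapping matches at bases −130 to −116, and the Isg15 window (chr4:156200819-156201068, minus strand) 3 at bases −78 to −58. A match is a run of letters and does not show that a factor binds there.

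**Figure D1:**
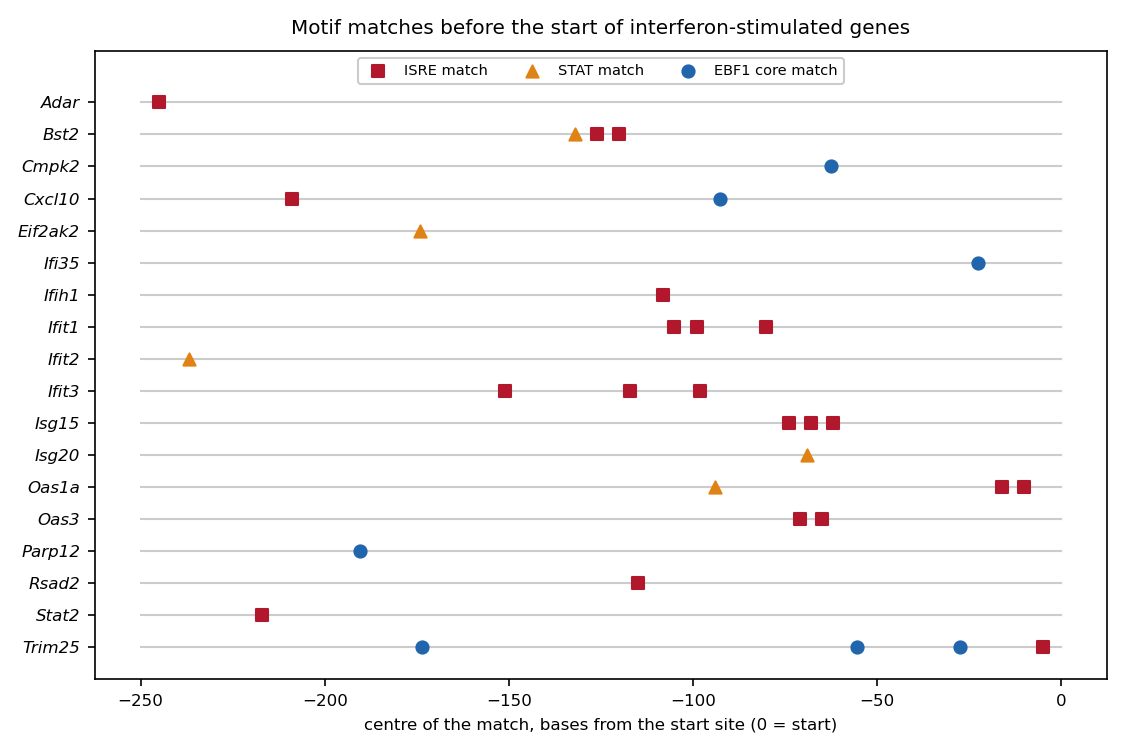
Each line is the 250 bases before the start of a member with at least 1 match, and each mark is the centre of a match in bases from the start. Squares are ISRE core matches (12 members), triangles matches to the STAT motif (5 members) and circles matches to the EBF1 core (5 members); members with no match to any of them are not drawn.

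Of the other 2 motifs searched in the same windows, TTCNNNGAA, the palindromic motif of STAT dimers, was in 5 of the 37 entries (13.5%, against 7.02% of all entries), and CCCNNGGG, the palindromic core of the EBF1 motif, in 5 of them (13.5%, against 11.8% of all entries). The STAT motif of Bst2 shares 3 bases with the first of its ISRE matches. The EBF1 core was found for Cmpk2, Cxcl10, Ifi35, Parp12 and Trim25, and for the other members searched no match says only that these letters are not in the window.

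Between 50.7% and 56.9% of the probes were well above background on an array, with 51.4% to 53.4% on the EBF1ΔC arrays, 50.7% to 51.2% on the EBF1wt arrays and 54.3% to 56.9% on the Mock arrays. All 10 pro-B and B-lineage markers were well above background on every array. The probe that stands for Ebf1 read 3.81, 3.74 and 3.85 on the EBF1ΔC arrays, 3.17, 2.87 and 3.16 on the EBF1wt arrays, and 1.73, 1.47 and 1.17 on the Mock arrays, and its place relative to the floxed part of the gene was not determined. A second Ebf1 probe was well above background only on the Mock arrays, at −3.03, −2.32 and −2.42, and on none of the 6 arrays with virus. All 3 Mock arrays were scanned on another day from the other 6 and on slides of their own, so that scan day and slide cannot be told apart from the Mock group, whereas EBF1ΔC and EBF1wt arrays shared 2 slides. In RNA from a whole culture, fewer cells that express a gene and less of its RNA per cell cannot be told apart.

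Seen array by array, and with arrays scaled to their 75th percentile, the 31 genes had medians below Mock in both EBF1 groups and lowest in EBF1wt; scaled to the array median, the EBF1ΔC median lay above Mock. The median of the genes, each taken relative to its mean over the Mock arrays, was −0.54, −0.30 and −0.41 on the EBF1ΔC arrays and −0.81, −0.81 and −0.79 on the EBF1wt arrays, with −0.03, 0.03 and 0.00 on the Mock arrays themselves. Between 11 and 13 of the 31 genes were above their Mock mean on an EBF1ΔC array, and between 5 and 9 on an EBF1wt array. The share of all genes above their Mock mean was not counted. The genes did not move as 1 block: the differences from Mock ranged from −3.80 to 1.44 in EBF1wt and from −2.45 to 2.25 in EBF1ΔC.

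**Figure D2:**
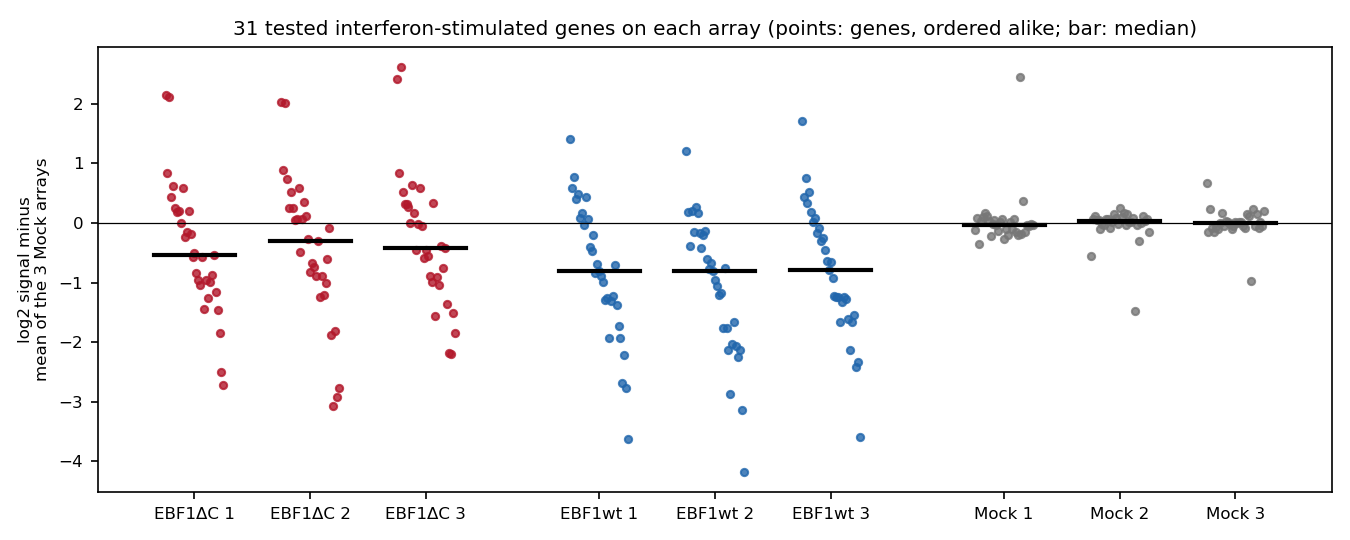
Each point is 1 of the 31 tested genes on 1 array, as log2 signal minus the mean of the 3 Mock arrays (y axis), with the genes in the same order in every column and the array's median as a bar. The bars of the EBF1ΔC arrays (−0.54 to −0.30) lie above those of the EBF1wt arrays (−0.81 to −0.79), and Mock arrays lie near 0 because their own mean was subtracted. The high Mock 1 point is Ifit1.

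The first comparison asks whether the cells that live on EBF1ΔC differ from those that live on wild-type EBF1. Rtp4, Ifitm3, Zbp1 and Usp18 rose in EBF1ΔC relative to EBF1wt, by 3.64-fold, 2.82-fold, 2.56-fold and 2.38-fold, at an adjusted p under 0.05 and at least 2-fold, the rule that defines a call here. These 4 are of 31 genes, where 1.38% of all genes tested were called higher and 1.33% lower. With limma, 0 of the 31 genes were called lower, and also 0 were lower at an unadjusted p under 0.05, against 18 that were higher at that level. The share of all genes at an unadjusted p under 0.05 was not counted, here or below. On the adjusted p alone, 11 genes were higher and 0 lower, where 4.08% of all genes were higher and 4.95% lower: beside those 4 they were Irf7, Isg15, Ifih1, Stat2, Ifit2, Xaf1 and Irf9, with differences of 0.41 to 0.92. The median difference of the 31 genes was 0.36, against −0.01 over all genes tested, and 29 of the 31 values were above 0, the 2 below being Oas3 (−0.08) and Trim25 (−0.11).

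The count on the adjusted p alone was 7 without Mock replicate 2, EBF1wt replicate 2 or EBF1ΔC replicate 1 and 5 without EBF1ΔC replicate 2. Of all genes tested, 778, 754, 549 and 510 passed it in these fits, in that order, against 1087 in the main fit. A fit with slide as a block had 2 residual degrees of freedom, and 142 of all 12048 genes passed its adjusted p. None of the 31 genes passed it, while 12 were higher at an unadjusted p under 0.05 and the median difference was 0.53. On the slide that held EBF1ΔC replicate 3 and EBF1wt replicate 2, 28 of the 31 genes were higher in EBF1ΔC with a median difference of 0.60. On the slide with EBF1ΔC replicate 1 and EBF1wt replicate 3, 29 of 31 were higher with a median of 0.22. The share and median over all genes were not computed for these pairs of arrays, so a shift of all genes there was not tested.

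The second comparison sets cells rescued by wild-type EBF1 against Mock cells soon after tamoxifen. Of the 31 genes, 13 fell in EBF1wt and 1 rose, where 12.8% of all genes were called lower and 6.61% higher. Those that fell were Zbp1, Oasl2, Sp100, Oas3, Mx2, Ifitm3, Irf7, Oas2, Stat2, Bst2, Usp18, Dhx58 and Ddx58, and the 1 that rose was Cmpk2. Oasl2, Oas3 and Mx2 passed the filter through the Mock arrays alone and Cmpk2 through the EBF1 arrays alone, which favours the direction of their calls. With only probes well above background on all 9 arrays, 10 of 26 members were called lower and 0 higher. Of all genes, 7.96% were then called lower and 5.96% higher. On the adjusted p alone 20 were lower and 3 higher, where 27.1% of all genes were lower and 39.5% higher. The median difference of the 31 genes was −0.81, against 0.12 over all genes.

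In the third comparison, which uses the same Mock arrays again, 7 of the 31 genes fell in EBF1ΔC relative to Mock and 2 rose, where 11.9% of all genes were called lower and 6.25% higher. The genes that fell were Zbp1, Oasl2, Oas3, Sp100, Mx2, Bst2 and Oas2, and those that rose were Rtp4 and Cmpk2. Here too Oasl2, Oas3 and Mx2 passed the filter through the Mock arrays alone and Cmpk2 through the EBF1 arrays alone. With only probes well above background on all 9 arrays, 4 of 26 members were called lower and 1 higher. Of all genes, 7.81% were then called lower and 5.44% higher. On the adjusted p alone 15 were lower and 7 higher, where 26.8% of all genes were lower and 37.4% higher. The median difference was −0.39, against 0.10 over all genes, and without Mock replicate 1 it was −0.23.

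The zero point of both comparisons with Mock depends on the scaling. With each array scaled to its median instead of its 75th percentile, the median of all genes tested was 0.82 for EBF1wt against Mock and 0.65 for EBF1ΔC against Mock, and the members' medians were −0.10 and 0.15. Relative to all genes the members' medians were −0.92 for EBF1wt and −0.49 for EBF1ΔC under both scalings. They could not differ, because the scalings differ only by a constant for each array. With normexp and quantile normalization these relative medians were −0.37 for EBF1wt and −0.21 for EBF1ΔC. With the log2 values deposited by the authors they were −0.35 and −0.19. Under the median scaling 6 members were called lower and 4 higher in EBF1wt (6.62% and 38.1% of all genes), and 4 lower and 4 higher in EBF1ΔC (7.1% and 25.5% of all genes). No member called here changed its direction under any scaling, but members with differences near 0 lay on either side of it, so that for members not called the differences from Mock are values on the 75th percentile scale.

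**Figure D3:**
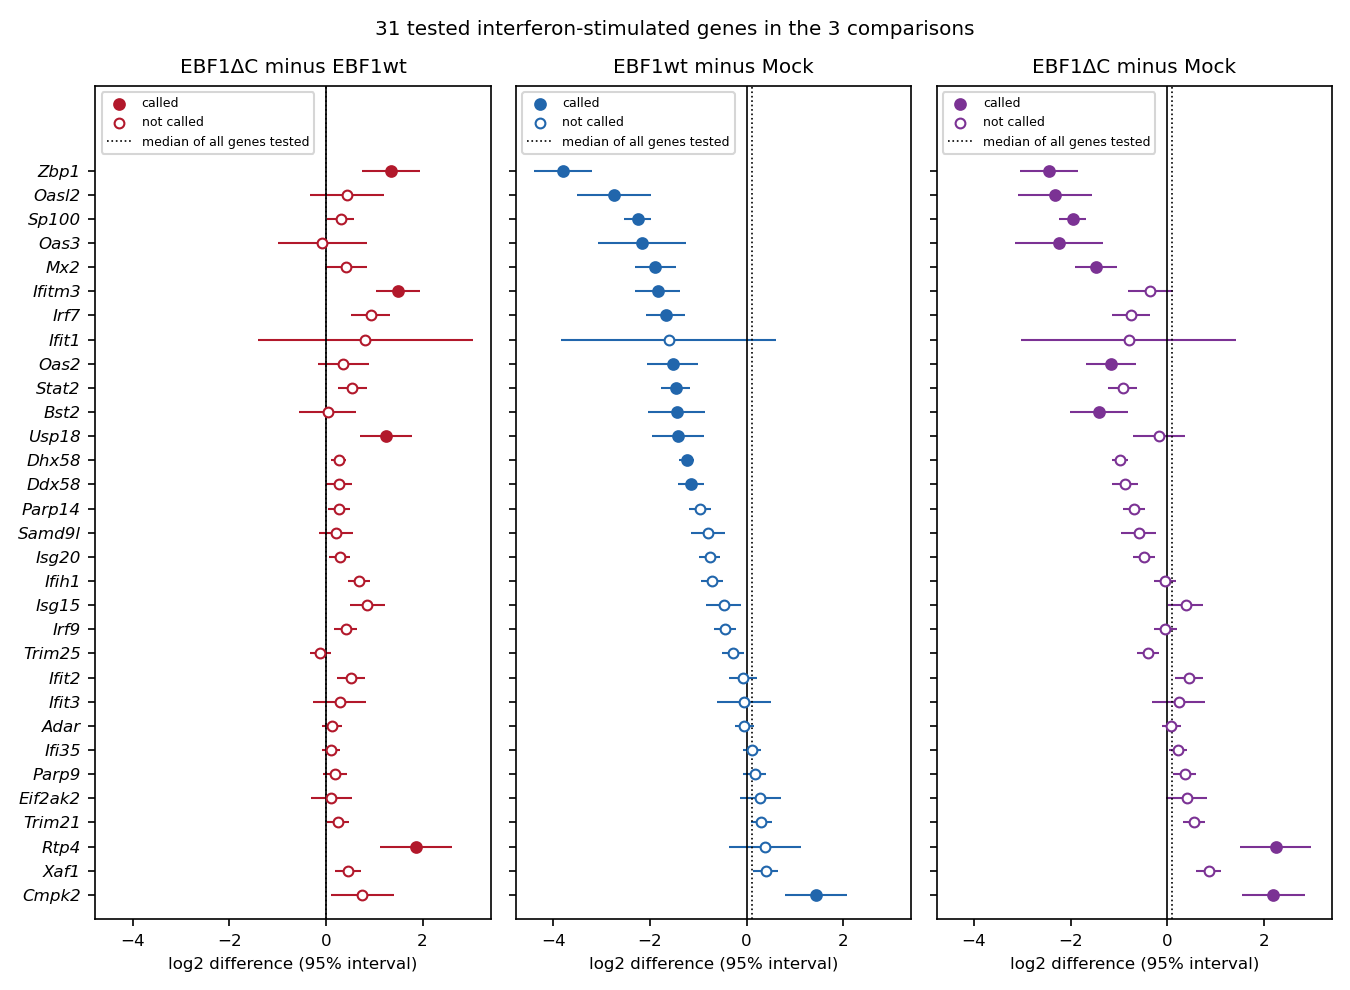
Differences of the 31 tested genes on the log2 scale with 95% intervals, in 3 panels from left to right for EBF1ΔC minus EBF1wt, EBF1wt minus Mock and EBF1ΔC minus Mock. Filled points are called genes (4, 14 and 9), open points are not called, and the dotted line is the median of all 12048 genes (−0.01, 0.12 and 0.10); genes run down the page by their difference between EBF1wt and Mock.

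Among the genes of signalling and transcription, Stat2, which encodes the STAT partner particular to the interferon complexes, had log2 signals of 1.47, 1.54 and 1.53 on the EBF1ΔC arrays, 1.12, 0.67 and 1.11 on the EBF1wt arrays, and 2.28, 2.45 and 2.58 on the Mock arrays (probe at chr10:127729181-127729240, mm9). The 3 groups did not overlap, with EBF1ΔC between the others. Stat2 fell in EBF1wt against Mock by 1.47 (SE 0.13, adjusted p = 3.562e-05), while EBF1ΔC minus EBF1wt was 0.55 (SE 0.13, adjusted p = 0.0397), past the p but under 2-fold. Against Mock the EBF1ΔC difference was −0.92 (adjusted p = 0.000446), and without Mock replicate 1 it was −1.0 and called.

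Irf7, the factor that raises interferon production, read −3.11, −2.84 and −2.99 on the EBF1ΔC arrays, −3.61, −4.27 and −3.84 on the EBF1wt arrays, and −2.42, −2.27 and −2.01 on the Mock arrays (probe at chr7:148450664-148451014, mm9). Here too EBF1ΔC lay between EBF1wt and Mock with no overlap. EBF1wt minus Mock was −1.67 (SE 0.17, adjusted p = 7.378e-05). EBF1ΔC minus EBF1wt was 0.92 (SE 0.17, adjusted p = 0.0163), under 2-fold, and 1.07 and called without EBF1wt replicate 1. Irf9, the DNA-binding subunit of ISGF3, averaged 0.79 ± 0.11 in EBF1ΔC, 0.38 ± 0.18 in EBF1wt and 0.83 ± 0.03 in Mock (SD, n = 3 each), with no call in any comparison.

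The sensors detect foreign or misplaced nucleic acid. Zbp1, a sensor of Z-form nucleic acid that can start cell death, had the largest difference of the 31 genes from Mock in both EBF1 groups. Its log2 signals were −0.14, −0.19 and 0.74 on the EBF1ΔC arrays, −1.04, −1.60 and −1.01 on the EBF1wt arrays, and 2.54, 2.42 and 2.78 on the Mock arrays (probe at chr2:173032113-173032170, mm9). No array of 1 group reached into another. Zbp1 was 2.56-fold higher in EBF1ΔC than in EBF1wt (difference 1.35, SE 0.26, adjusted p = 0.0178), 2.34 on the 1 shared slide and 0.87 on the other, and 1.61 with adjusted p = 0.146 with slide as a block. In EBF1wt it was 13.9-fold lower than in Mock (adjusted p = 8.345e-06), and in EBF1ΔC 5.45-fold lower (adjusted p = 9.043e-05).

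Ddx58, which encodes the RNA helicase RIG-I, read −1.11, −0.89 and −1.04 in EBF1ΔC, −1.13, −1.35 and −1.38 in EBF1wt, and −0.34, 0.03 and −0.12 in Mock (probe at chr4:40156918-40156977, mm9). Dhx58, a helicase of the same family that tunes RNA sensing, read −0.73, −0.58 and −0.67 in EBF1ΔC, −0.98, −0.86 and −0.92 in EBF1wt, and 0.34, 0.28 and 0.34 in Mock (probe at chr11:100556271-100556330, mm9). For both genes the 6 EBF1 arrays and the Mock arrays did not overlap on this scale at the probe given. Ddx58 fell in EBF1wt against Mock by 1.14 (SE 0.12, adjusted p = 6.762e-05) and Dhx58 by 1.24 (SE 0.07, adjusted p = 3.014e-06). For EBF1ΔC against Mock the differences were −0.87 and −0.98, past the adjusted p but under 2-fold, and Dhx58 was called, at −1.02, without EBF1ΔC replicate 2. The other Ddx58 probes past the filter gave 0.02 (adjusted p = 0.938 over all probes), −0.11 (0.439) and −0.84 (0.00837) for EBF1ΔC against Mock. The Ddx58 difference in EBF1ΔC therefore depends on the probe. Between EBF1ΔC and EBF1wt neither passed the test, at 0.28 (adjusted p = 0.188) and 0.26 (adjusted p = 0.0562).

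Ifih1, the third helicase of the family, encodes MDA5 and averaged −1.91 ± 0.15 in EBF1ΔC, −2.59 ± 0.11 in EBF1wt and −1.88 ± 0.10 in Mock (SD, n = 3 each). EBF1ΔC minus EBF1wt was 0.68 (SE 0.10, adjusted p = 0.00599) and EBF1wt minus Mock −0.72 (adjusted p = 0.000364), while EBF1ΔC minus Mock was −0.04 (95% interval −0.27 to 0.19). Adar, the editing enzyme that marks self RNA, averaged 1.32 ± 0.10 in EBF1ΔC, 1.19 ± 0.12 in EBF1wt and 1.24 ± 0.03 in Mock. Eif2ak2, the kinase PKR that halts translation, averaged 0.08 ± 0.20 in EBF1ΔC, −0.03 ± 0.37 in EBF1wt and −0.32 ± 0.13 in Mock, and neither gene passed the adjusted p in any comparison.

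The oligoadenylate synthetases make the messenger that activates RNase L, and Oas2, Oas3 and the related Oasl2 fell in both EBF1 groups relative to Mock. Oas2 read −4.12, −4.08 and −3.91 in EBF1ΔC, −4.09, −5.00 and −4.12 in EBF1wt, and −3.06, −2.79 and −2.75 in Mock (probe at chr5:121180434-121180493, mm9). Both EBF1 groups overlapped each other and lay below Mock, with Oas2 falling by 1.17 in EBF1ΔC (SE 0.23, adjusted p = 0.00223) and by 1.53 in EBF1wt (SE 0.23, adjusted p = 0.000498) relative to Mock. Oasl2, a synthetase-like protein, read −4.50, −4.92 and −3.52 in EBF1ΔC, −4.76, −5.14 and −4.32 in EBF1wt, and −2.01, −1.93 and −2.05 in Mock (probe at chr5:115362168-115362227, mm9). It was well above background on 2 EBF1ΔC arrays, 1 EBF1wt array and all Mock arrays, and it fell by 2.32 in EBF1ΔC (adjusted p = 0.000454) and by 2.74 in EBF1wt (adjusted p = 0.000172) relative to Mock.

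Oas3, whose ISRE matches are printed above, was not well above background on any EBF1 array. It read −5.84, −7.45 and −6.56 in EBF1ΔC, −7.07, −6.63 and −5.92 in EBF1wt, and −4.40, −4.27 and −4.46 in Mock (probe at chr5:121203598-121203657, mm9). The signal was therefore at least 2.02-fold lower in EBF1ΔC and at least 1.90-fold lower in EBF1wt than in Mock. Such a bound sets the mean of the brighter group against, on each array of the dimmer group, the higher of the probe's own signal and the lowest signal well above background. Bounds were not tested, and an adjusted p near a bound belongs to the measured difference. For Oas3 these differences were −2.24 in EBF1ΔC (adjusted p = 0.00141) and −2.16 in EBF1wt (adjusted p = 0.0016). Its call in EBF1wt rests on signals not well above background, since the bound is under 2-fold. A second Oas3 probe was bright on Mock replicate 2 alone, at −3.41, and between −7.83 and −7.20 on the other 8 arrays, and it did not enter the tests.

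The antiviral effectors act on the virus or its RNA. Ifitm3, a membrane protein that blocks viral fusion, read −2.67, −2.22 and −2.55 in EBF1ΔC, −3.86, −3.79 and −4.27 in EBF1wt, and −1.77, −2.44 and −2.18 in Mock (probe at chr7:148195591-148195650, mm9). EBF1ΔC overlapped Mock and lay above every EBF1wt array. It was 2.82-fold higher in EBF1ΔC than in EBF1wt (difference 1.49, SE 0.20, adjusted p = 0.00404), 1.24 and 1.60 on the 2 shared slides, and 1.42 with adjusted p = 0.0982 with slide as a block. Relative to Mock it was 3.58-fold lower in EBF1wt (adjusted p = 9.848e-05), and the EBF1ΔC difference was −0.35 (95% interval −0.81 to 0.12, adjusted p = 0.162).

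Bst2, the membrane anchor tetherin that holds budding virus on the cell and whose upstream matches are printed above, read 2.21, 2.41 and 2.09 in EBF1ΔC, 1.73, 2.90 and 1.99 in EBF1wt, and 3.72, 3.67 and 3.57 in Mock (probe at chr8:74058603-74058662, mm9). It was below Mock on all 6 EBF1 arrays and the 2 EBF1 groups did not differ beyond their spread, with EBF1ΔC minus EBF1wt at 0.03 (95% interval −0.56 to 0.63). The fall relative to Mock was by 1.41 in EBF1ΔC (SE 0.26, adjusted p = 0.00162) and by 1.45 in EBF1wt (SE 0.26, adjusted p = 0.00134). Mx2, a GTPase that traps viral components, read −4.73, −5.44 and −4.94 in EBF1ΔC, −5.50, −5.64 and −5.22 in EBF1wt, and −3.72, −3.56 and −3.42 in Mock (probe at chr16:97782327-97782386, mm9). It was well above background on 2 EBF1ΔC arrays, 0 EBF1wt arrays and all Mock arrays. Mx2 was 2.77-fold lower in EBF1ΔC than in Mock (adjusted p = 0.000237), and at least 3.24-fold lower in EBF1wt than in Mock. The measured EBF1wt difference was −1.88 (adjusted p = 5.893e-05).

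Cmpk2, a mitochondrial nucleotide kinase, ran the other way from most of the genes. It read −3.33, −3.44 and −3.06 in EBF1ΔC, −4.07, −4.26 and −3.77 in EBF1wt, and −5.60, −6.02 and −4.80 in Mock, where no array was well above background (probe at chr12:27164119-27164178, mm9). Cmpk2 was at least 3.985-fold higher in EBF1ΔC than in Mock and at least 2.36-fold higher in EBF1wt than in Mock. The measured differences were 2.20 (adjusted p = 0.000247) and 1.44 (adjusted p = 0.00219). EBF1ΔC minus EBF1wt was 0.76 (adjusted p = 0.141). Its neighbour on chromosome 12, Rsad2, was not well above background on all 3 arrays of any group.

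The Ifit genes, which encode proteins that bind foreign RNA, were not called in any comparison. Ifit2 averaged −0.53 ± 0.24 in EBF1ΔC, −1.06 ± 0.14 in EBF1wt and −0.98 ± 0.06 in Mock (SD, n = 3 each), with EBF1ΔC minus EBF1wt at 0.52 (adjusted p = 0.0391) and EBF1ΔC minus Mock at 0.45 (adjusted p = 0.014). Ifit3 averaged −2.96 ± 0.34 in EBF1ΔC, −3.24 ± 0.44 in EBF1wt and −3.19 ± 0.20 in Mock. Ifit1 was well above background on all 3 EBF1ΔC arrays, on 1 EBF1wt array and on 1 Mock array. That Mock array, replicate 1, read −1.88, against −5.80 and −5.31 on the other 2 Mock arrays. Isg20, an exonuclease that degrades RNA, averaged 1.18 ± 0.18 in EBF1ΔC, 0.90 ± 0.06 in EBF1wt and 1.66 ± 0.06 in Mock. Samd9l, a restriction factor for poxviruses, averaged −1.49 ± 0.20 in EBF1ΔC, −1.71 ± 0.15 in EBF1wt and −0.90 ± 0.26 in Mock, and both were past the adjusted p, under 2-fold, in each comparison with Mock.

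Feedback and modification genes regulate the response itself. Usp18, the protease that removes ISG15 and damps the receptor, read −3.91, −3.64 and −3.0 in EBF1ΔC, −4.61, −5.11 and −4.58 in EBF1wt, and −3.45, −3.19 and −3.40 in Mock (probe at chr6:121220513-121220572, mm9). EBF1ΔC overlapped Mock, and EBF1wt lay below both. Usp18 was 2.38-fold higher in EBF1ΔC than in EBF1wt (difference 1.25, SE 0.23, adjusted p = 0.0158), 2.11 and 0.68 on the 2 shared slides, and 1.39 with adjusted p = 0.176 with slide as a block. Without EBF1ΔC replicate 3 the difference was 0.99, under 2-fold. In EBF1wt it was 2.68-fold lower than in Mock (adjusted p = 0.00084), and EBF1ΔC minus Mock was −0.17 (95% interval −0.71 to 0.36).

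Isg15, the ubiquitin-like protein that USP18 removes, and which has the run of 3 ISRE matches, averaged −0.63 ± 0.19 in EBF1ΔC, −1.49 ± 0.29 in EBF1wt and −1.01 ± 0.14 in Mock (SD, n = 3 each). EBF1ΔC exceeded EBF1wt by 0.86 (SE 0.16, adjusted p = 0.0158), past the p but under 2-fold. Parp14, an ADP-ribosyltransferase, averaged 2.31 ± 0.14 in EBF1ΔC, 2.04 ± 0.09 in EBF1wt and 2.99 ± 0.11 in Mock. The EBF1wt difference from Mock was −0.96 (adjusted p = 6.808e-05), and without Mock replicate 1 it was −1.01 and called. The ubiquitin ligases Trim25, which activates RIG-I, and Trim21, an antibody receptor in the cytosol, averaged 3.19 ± 0.13 and 0.02 ± 0.15 in EBF1ΔC, 3.30 ± 0.13 and −0.24 ± 0.10 in EBF1wt, and 3.58 ± 0.07 and −0.54 ± 0.07 in Mock. Parp9, the partner of DTX3L, averaged 0.99 ± 0.14 in EBF1ΔC, 0.80 ± 0.09 in EBF1wt and 0.63 ± 0.15 in Mock.

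Of the remaining genes, Rtp4, a zinc-finger protein induced by interferon, had the largest difference between the 2 EBF1 groups. It read −0.11, −0.21 and 0.39 in EBF1ΔC, −1.45, −2.61 and −1.46 in EBF1wt, and −2.58, −2.11 and −2.00 in Mock (probe at chr16:23613668-23613727, mm9). EBF1ΔC stood above all 6 other arrays, and EBF1wt and Mock overlapped. Rtp4 was 3.64-fold higher in EBF1ΔC than in EBF1wt (difference 1.86, SE 0.32, adjusted p = 0.0119), 3.0 and 1.36 on the 2 shared slides, and 2.18 with adjusted p = 0.113 with slide as a block. It was 4.75-fold higher in EBF1ΔC than in Mock (adjusted p = 0.000439), and the EBF1wt difference from Mock was 0.38 (adjusted p = 0.319).

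Sp100, a nuclear body protein, read −0.42, −0.38 and −0.77 in EBF1ΔC, −0.79, −0.70 and −1.0 in EBF1wt, and 1.38, 1.46 and 1.45 in Mock (probe at chr1:87596319-87598000, mm9). The EBF1 groups overlapped, and relative to Mock Sp100 fell by 1.95 in EBF1ΔC (SE 0.12, adjusted p = 5.418e-06) and fell by 2.26 in EBF1wt (SE 0.12, adjusted p = 2.169e-06). Mouse Sp100 has related copies on chromosome 1, and its probe may bind their RNA as well. Xaf1, a factor that opposes an inhibitor of apoptosis, averaged −0.44 ± 0.03 in EBF1ΔC, −0.89 ± 0.20 in EBF1wt and −1.29 ± 0.14 in Mock (SD, n = 3 each), with EBF1ΔC minus EBF1wt at 0.46 (adjusted p = 0.0432) and EBF1ΔC minus Mock at 0.86 (adjusted p = 0.000297). Ifi35 averaged 2.21 ± 0.04 in EBF1ΔC, 2.10 ± 0.08 in EBF1wt and 1.98 ± 0.11 in Mock.

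**Figure D4:**
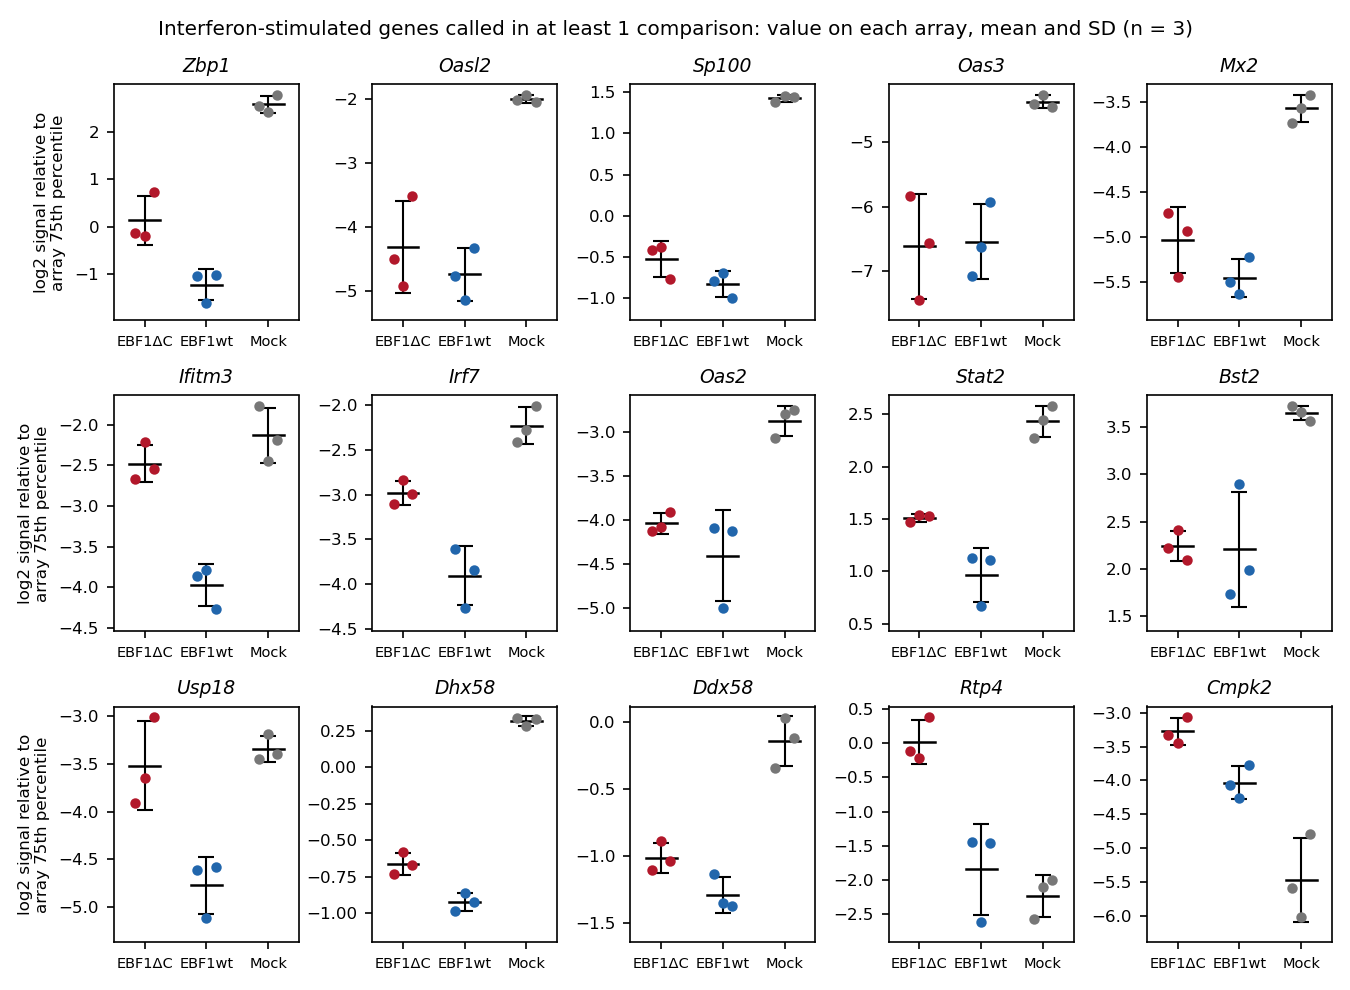
Log2 signal relative to the 75th percentile of the array (y axis, its own range in each panel) of the 15 genes called in at least 1 comparison, with 3 arrays a group as points and the mean with SD as bars. Rtp4, Ifitm3, Zbp1 and Usp18 are higher on every EBF1ΔC array than on every EBF1wt array, and Cmpk2 and Rtp4 are the genes whose EBF1ΔC arrays all lie above all Mock arrays.

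By role, all 3 signalling genes were higher in EBF1ΔC than in EBF1wt on the adjusted p alone. In EBF1wt against Mock, Stat2 and Irf7 were called lower, while Irf9 was not called, at −0.45 on the 75th percentile scale and 0.26 with arrays scaled to their median. Of 9 sensors and synthetases, 4 were called lower in EBF1ΔC and 6 in EBF1wt against Mock, with 1 called higher in EBF1ΔC than in EBF1wt. Among 9 effectors 2 were called lower in EBF1ΔC and 3 in EBF1wt against Mock, Cmpk2 was called higher in both, and 1 was higher in EBF1ΔC than in EBF1wt. Of the 6 feedback genes Usp18 alone was called, lower in EBF1wt than in Mock and higher in EBF1ΔC than in EBF1wt. The 4 remaining genes held Sp100, called lower in both EBF1 groups against Mock, and Rtp4, called higher in EBF1ΔC against either group. These counts are read against the shares over all genes given with each comparison. Those against Mock include Oasl2, Oas3 and Mx2, which passed the filter through the Mock arrays alone, and Cmpk2, through the EBF1 arrays alone. This favours the direction of their calls.

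Genes with several probes past the filter show how far a value depends on the probe. All 3 Sp100 probes were lower than Mock, and in EBF1wt their differences were −1.65, −2.26 and −4.08. The 3 Parp14 probes gave −0.96, −1.03 and −2.13 for EBF1wt against Mock, and the 4 Ddx58 probes −0.42, −0.47, −1.14 and −1.42. For EBF1ΔC against EBF1wt every probe of these 3 genes was above 0, between 0.17 and 0.57. The Adar probes lay on both sides of 0 there, at 0.13 for the brightest and −0.09 for the other. For Irf9 the brightest probe gave −0.45 in EBF1wt and −0.03 in EBF1ΔC against Mock, and the other −0.18 and 0.29. The probes of Ifit2, Isg20 and Trim25 kept their direction in each comparison. With the mean of the probes in place of the brightest one, Ddx58 was no longer called in EBF1wt against Mock (−0.86), and Parp14 was called lower in EBF1wt (−1.37) and in EBF1ΔC (−1.12) against Mock.

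**Figure D5:**
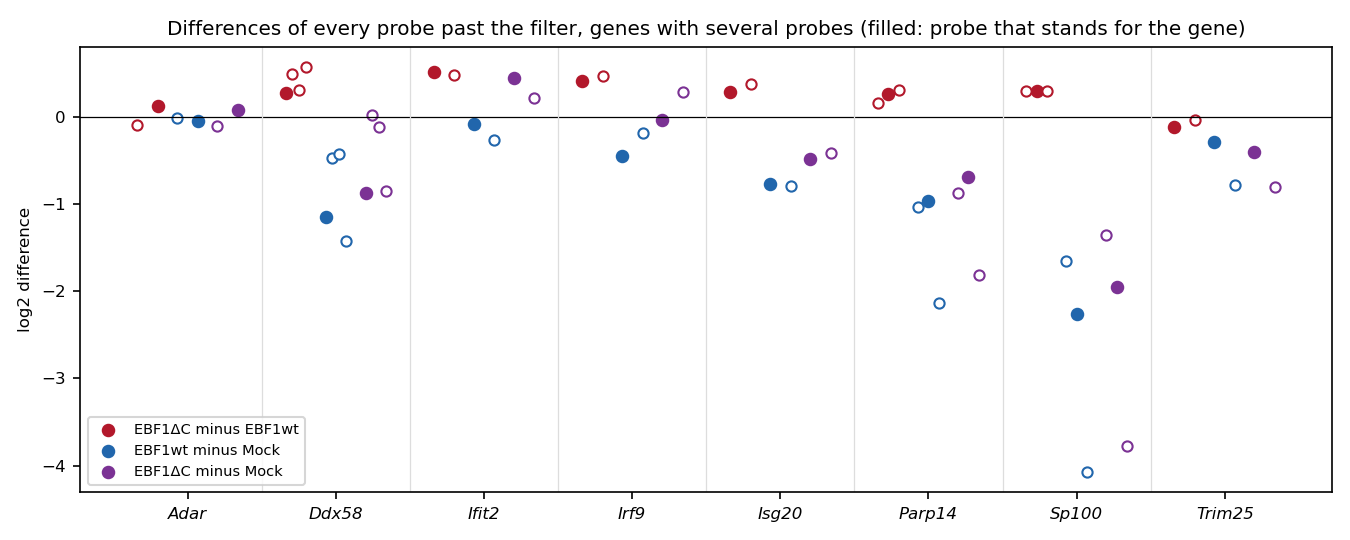
Log2 differences (y axis) of every probe past the filter for the 8 genes with several such probes, in the order EBF1ΔC minus EBF1wt, EBF1wt minus Mock and EBF1ΔC minus Mock within each gene; filled points are the probes that stand for their gene. The Sp100 probes spread from −4.08 to −1.65 for EBF1wt minus Mock.

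The 8 genes without a test were Oasl1, Oas1a, Mx1, Rsad2, Ifi44, Cxcl10 and Parp12, whose probes were not well above background on all arrays of any group, and Dtx3l, which had no probe. Oas1a and Oasl1 are synthetase family members, Rsad2 encodes viperin, Cxcl10 a chemokine, and Mx1 the GTPase related to Mx2. For Mx1, 1 probe was well above background on Mock replicate 1 and the other on Mock replicate 3, and 1 of the 3 Rsad2 probes on Mock replicate 2, at −2.96 against −7.84 to −7.18 on the other arrays. A gene below background is not shown to be silent.

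The rest of the interferon pathway was described with further gene lists. Between EBF1ΔC and EBF1wt, 1.38% of all genes tested were called higher and 1.33% lower, and the counts of each list stand beside these shares. Of 15 listed interferon genes, 11 had a probe and 2 were tested, Ifnab and Ifna9. With limma 0 of them were called in any comparison and 0 passed an unadjusted p under 0.05, with EBF1ΔC minus EBF1wt at 0.03 and −0.07. Among 10 tested genes of a list of receptors, kinases and signalling factors, the 1 call between the EBF1 groups was Ifnlr1, the receptor chain for type III interferon, lower in EBF1ΔC by a difference of −1.03 (adjusted p = 0.0166), and Ifnlr1 was higher in EBF1wt than in Mock by 1.08 (adjusted p = 0.00145). Ifngr1, a receptor chain for interferon gamma, was lower in EBF1ΔC than in Mock, at −1.05 (adjusted p = 1.754e-05), and its EBF1wt difference from Mock was −0.99 (adjusted p = 2.16e-05), under 2-fold.

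Of 10 feedback inhibitors, 0 were called between EBF1ΔC and EBF1wt by limma, with 2 higher at an unadjusted p under 0.05, and the largest differences were 0.26 for Pias3 and 0.23 for Socs1. Socs1, which blocks JAK kinases, and Ptpn6, a phosphatase, fell against Mock, by 1.63 and 1.2 in EBF1ΔC and by 1.86 and 1.15 in EBF1wt. Among 19 tested genes of nucleic acid sensing, 0 were called between the EBF1 groups by limma, with 3 higher and 1 lower at an unadjusted p under 0.05. The largest differences were 0.83 for Cgas and 0.73 for Irf1. Against Mock, 6 were called lower in each EBF1 group, where 11.9% of all genes were lower in EBF1ΔC and 12.8% in EBF1wt. Among them Tlr7 and Cgas passed the filter through the Mock arrays alone, which favours the direction of their calls. The largest was Tlr7, an endosomal RNA sensor, which was not well above background on any EBF1 array and was at least 72.4-fold lower in EBF1ΔC and at least 68.3-fold lower in EBF1wt than in Mock. Samhd1, which depletes nucleotides, and Trex1, a DNA exonuclease, fell by 2.12 and 1.52 in EBF1ΔC and by 2.21 and 1.66 in EBF1wt. Cgas, a DNA sensor, was well above background on 1 EBF1ΔC array, 0 EBF1wt arrays and all Mock arrays. Its difference from Mock was −1.40 in EBF1ΔC (adjusted p = 0.0421). In EBF1wt the signal was at least 2.13-fold lower than in Mock, and the measured difference had an adjusted p of 0.00523.

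A further list of type I interferon-induced genes had 60 tested of 70 listed. Between EBF1ΔC and EBF1wt, 3 were called higher, Lgals3bp (1.54), Tdrd7 (1.44) and Ifit1bl1 (1.15), and 0 lower, where 1.38% of all genes were called higher and 1.33% lower. At an unadjusted p under 0.05 by limma, 20 were higher and 1 lower. In EBF1wt against Mock 11 were lower and 5 higher, where 12.8% of all genes were lower and 6.61% higher, among them Pml at −2.13 and Tent5c, Lgals9 and Ifitm2 at 2.68, 1.97 and 1.97. In EBF1ΔC against Mock 8 were lower and 5 higher, where 11.9% of all genes were lower and 6.25% higher, among them Rnf213 and Mlkl at −2.38 and −2.13, and Lgals3bp and Tent5c at 2.84 and 2.15. In both comparisons with Mock, some of the genes called lower passed the filter through the Mock arrays alone, which favours that direction. The median difference of the list between the EBF1 groups was 0.12.

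Of 22 tested genes known for induction by interferon gamma, 6 were called higher in EBF1ΔC than in EBF1wt, where 1.38% of all genes were. On the adjusted p alone 13 were higher, where 4.08% of all genes were. With limma 0 were lower on either rule, where 1.33% and 4.95% of all genes were, and 0 at an unadjusted p under 0.05. H2-Aa and H2-Eb1, chains of MHC class II, differed by 2.68 and 2.37, Ciita, the class II transactivator, by 2.24, and Iigp1, an immunity-related GTPase, by 2.60. Against Mock, 3 of the 22 were called lower and 3 higher in EBF1ΔC, and 5 lower and 1 higher in EBF1wt. Of all genes, 11.9% were called lower and 6.25% higher in EBF1ΔC, and 12.8% and 6.61% in EBF1wt. The list's median difference from Mock was 0.21 in EBF1ΔC and −0.37 in EBF1wt. The 3 called lower in EBF1ΔC were H2-Aa, H2-Eb1 and Ciita, at −4.04, −4.36 and −4.52. In EBF1wt these genes differed from Mock by −6.72, −6.73 and −6.77. Gbp6, a guanylate-binding protein that was not well above background in Mock, was at least 5.10-fold higher in EBF1ΔC and at least 2.70-fold higher in EBF1wt. It passed the filter through the EBF1 arrays alone, which favours this direction.

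Markers of other cell types also differed between the groups, and their part in the results was not tested. Of 10 plasmacytoid dendritic cell markers, 3 were well above background on all EBF1ΔC arrays, 2 on all EBF1wt arrays and 4 on all Mock arrays, and Siglech, Klk1 and Lair1 on no array. Their summed linear signal, relative to the 75th percentile, was 16.7 to 18.0 on the EBF1ΔC arrays, 4.39 to 5.16 on the EBF1wt arrays and 21.5 to 23.5 on the Mock arrays, and the gap between the EBF1 groups was carried by Cox6a2, at 3.67 to 3.77 (log2) on the EBF1ΔC arrays and −0.24 to 0.06 on the EBF1wt arrays. Of 10 myeloid markers, 2, 3 and 3 were well above background on all arrays of EBF1ΔC, EBF1wt and Mock, and Adgre1, Mpo, Elane and Cebpa on none. They summed to 8.04 to 15.6 in EBF1ΔC, 0.643 to 2.87 in EBF1wt and 2.57 to 3.0 in Mock, and the EBF1ΔC sums were carried by Lyz2. Of 10 T and NK cell markers, 2 in EBF1ΔC, 2 in EBF1wt and 4 in Mock were well above background, and Cd4, Cd8a, Ncr1 and Gzma on no array, with sums of 3.76 to 3.93 in EBF1ΔC, 1.04 to 2.30 in EBF1wt and 2.07 to 2.27 in Mock, carried by Lck in each group. Of 6 erythroid markers, 1 in EBF1ΔC, 1 in EBF1wt and 3 in Mock were well above background, and Gata1 on no array. They summed to 2.42 to 5.34 in EBF1ΔC, 3.30 to 5.46 in EBF1wt and 345 to 406 in Mock, carried in Mock by Hbb-bt, a globin gene. The 10 pro-B and B-lineage markers summed to 881 to 911 in EBF1ΔC, 867 to 935 in EBF1wt and 274 to 288 in Mock. The 6 stromal markers stayed between 0.0677 and 0.207 in every group.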

How the data were processed

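Total RNA of 9 samples was hybridised to Agilent 4x44K mouse arrays with 1 dye, and groups were taken from the sample titles. The deposited scanner files hold the intensity of each spot, which per the file headers Agilent Feature Extraction 10.5.1.1 background-subtracted and detrended without normalizing between arrays; the submitters' processing notes name version 9.1. The authors also deposited log2 values, whose normalization is not stated, and these served as an alternative. Their columns correlated with quantile-normalized values at 0.9991 to 0.9993 across probes, which are not independent replicates. Probe positions are the files' own (mm9); promoters are RefSeq's (GRCm38.p6).

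Spots marked as controls or as outliers were left out, each array's 75th percentile was subtracted from its log2 intensity, and spots of a probe were averaged. Probes were named by accession (27479), symbol (5478), synonym (679) or the file alone (1262), and 6276 had no gene. limma 3.58.1 in R 4.3.3 fitted 1 mean per group over all 9 arrays (6 residual degrees of freedom) to 12048 genes, with Benjamini-Hochberg adjustment over all of them. A call needs an adjusted p under 0.05 and at least 2-fold. The fit was tested on simulated data. The number of arrays limits the precision of every value.

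The members and the gene lists were chosen with earlier results of these data known. All members are named, with each array's value for those called in at least 1 comparison. Outside them the text names Ebf1 and, per list and comparison, up to 4 called genes with the largest difference, or the 2 largest differences where none was called; Isg15's promoter was added after its values were seen. Some genes of the lists are not reported here. Promoters are those of called members with an ISRE match. Deviations of same-numbered arrays correlated no more than those of other pairs, and the replicate number was not used as a block in the main fit. The alternatives were 2 other normalizations, the authors' values, other probe filters, slide or replicate as a block, the mean of a gene's probes, a fit of 2 groups alone, and fits without each array in turn.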

Additional observations from a re-analysis of the deposited data

How the results depend on the processing

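Of the differences of single members, no called one changed its direction under any alternative. For EBF1ΔC against EBF1wt, with 4 members called in all, 1 was called with normexp and quantile normalization and 2 with the authors' values. With no filter on dim probes 2 were called, with only the 2 groups compared 2, and with slide as a fixed block 0. The share of all genes called higher was 1.38% in the main fit. In these fits it was 0.548%, 0.531%, 0.539%, 0.797% and 0.54%, in that order. When 1 array was left out, 3 to 5 members were called, where 0.921% to 1.66% of all genes were called higher. The 11 members past the adjusted p alone were 6 with scaling to the median, 3 with no filter and 0 with slide as a block. They were 4 with only the 2 groups compared and 5 to 10 when 1 array was left out. Of all genes, 1087 of 12048 passed it in the main fit, in either direction. In these fits 520, 435 of 21164, 142, 483, and 510 to 918 genes passed it, in that order. The median difference of all 31 tested members was 0.53 with slide as a block, and 0.29 to 0.48 with 1 array left out. With the replicate block, 7 members passed the adjusted p for EBF1ΔC against EBF1wt, where 676 of all genes passed it. No other call or count moved by more than 1.5 times. Deviations from the group means correlated at −0.18 to 0.12 between same-numbered arrays and at −0.13 to 0.20 between the others. Within a group of 3 the deviations sum to 0, so these correlations cannot show whether same-numbered samples were prepared together.

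Against Mock, EBF1wt had 14 called members, and 5 with normexp and quantile normalization and 5 with the authors' values, all lower, where 5.33% and 5.15% of all genes were called lower. Its median difference was −0.31 and −0.28 under these 2 and −0.10 with scaling to the median. EBF1ΔC had 9 called members against Mock, and 4 with normexp and quantile normalization, 4 with the authors' values (1 higher and 3 lower each, where 5.40% and 5.20% of all genes were lower) and, with probes well above background on all 9 arrays, where 26 members were tested, 5. Its median difference was −0.17 with normexp and quantile normalization and −0.14 with the authors' values, and changed sign to 0.15 with scaling to the median, where the median of all genes rose to 0.65. With 1 array left out, the counts called were 14 to 15 for EBF1wt and 9 to 10 for EBF1ΔC, those past the adjusted p 19 to 24 for both, and the medians −0.88 to −0.73 for EBF1wt and −0.48 to −0.23 for EBF1ΔC. Beyond the alternatives named, the cause of these changes was not tested. Signal over background limits Oas3, Mx2, Oasl2, Cmpk2 and Ifit1, which were not well above background on all 9 arrays.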
